A study of Gallus gallus with 4 samples.

Results

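Proteoglycans are core proteins that carry long sulfated sugar chains. The small leucine-rich family sits on collagen fibrils and limits their width, as lumican and keratocan do in the cornea, and the large family fills the space between cells by binding hyaluronan. Stromal tissues such as cornea, sclera, tendon and cartilage are rich in the first family, while neurocan is a large proteoglycan of nervous tissue.

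Expression of 9 such genes was examined in cultures of chick embryonic neural retina. They were the small leucine-rich genes LUM, DCN, KERA, OGN, FMOD and EPYC and the large genes VCAN, ACAN and NCAN. A gene was followed through every array probe, controls aside, whose transcript accession belongs to it in the RefSeq gene table of the assembly GRCg7b. Of the 9 genes, 8 had a matched probe, out of 5382 genes named on the array, and together they had 19 probes. No probe was matched to ACAN, which encodes aggrecan of cartilage and of perineuronal nets, and ACAN was not analysed here. Of the 8, 6 were tested. EPYC was not well above background on any array, and DCN had a spot with an outlier flag on 1 array.

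The cells were dissociated with trypsin from retinas of embryonic day 8 (stage 33) and plated in medium with fetal bovine serum. From culture day 2 one group received 10 µM DAPT, an inhibitor of the γ-secretase that activates Notch receptors, and the other an equal volume of the solvent DMSO. Medium was renewed every 2 days and total RNA was taken on day 12, so both groups had been exposed to DMSO. Each group held 2 samples, each on its own 1-colour Agilent array. The comparison asks which genes differ after long exposure to the inhibitor. Nothing in the labels tells whether replicates were different embryos or cultures. P-values therefore cover the spread of these 4 arrays alone, and that spread may be technical.

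Between 85.7% and 89.3% of the 43803 spots per array were well above background, and no spot was saturated. The arrays of replicate 1 lay on slide 1 and those of replicate 2 on slide 2, so each gene is also given within a slide. The number of arrays limits the precision. Of 32294 features tested in limma, 25.5% passed an adjusted p of 0.05, with 13.1% lower and 12.4% higher in DAPT. Levels below are log2 processed signal relative to each array's 75th percentile, and changes are DAPT against DMSO on the log2 scale.

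Read on the brightest kept probe of each gene, LUM, FMOD, KERA and VCAN fell in DAPT by between 4.68-fold and 16.7-fold. After normexp background correction the range was 3.03-fold to 8.05-fold. Without that correction a second tested FMOD probe fell by 2.22-fold, less than the range. With it some dimmer probes fell by less than the range, at -1.06 in LUM, -1.14 in KERA and -0.34 in FMOD (log2). No change was detected in the neural gene NCAN or in OGN, a small leucine-rich gene of stroma like the first 3. Thus 4 of the 6 genes tested were lower and 0 higher in limma (0 also at an unadjusted p under 0.05), beside 13.1% of all features lower. Their median change was -2.42, against 0.061 over all features. The probe used for each of the 6 was well above background on all 4 arrays, so none of them entered the test through one group alone. The 9 genes were chosen with earlier results of these data known.

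**Figure D1:**
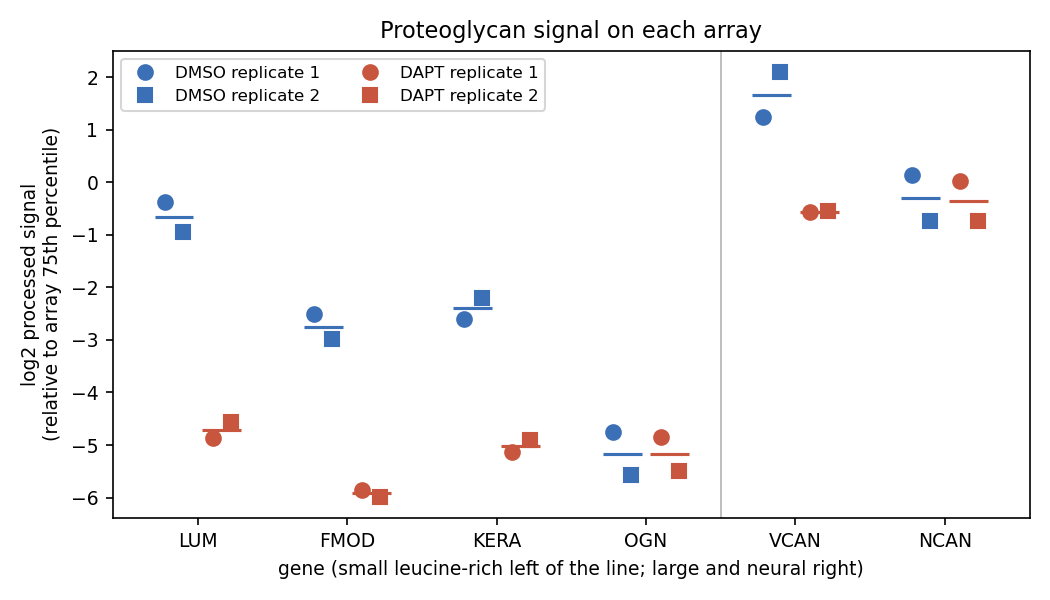
Log2 processed signal relative to each array's 75th percentile (vertical axis) for the 6 genes tested, with a point per array and a bar at each group's mean. In LUM, FMOD, KERA and VCAN both DAPT arrays lie below both DMSO arrays, and in OGN and NCAN the groups overlap. Heights of different genes come from different probes and are not comparable.

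LUM encodes lumican, a keratan sulfate proteoglycan of the cornea and of many connective tissues. Its processed signal was 1236 and 777 on the DMSO arrays against 50.8 and 59.4 on the DAPT arrays. Both DAPT arrays were far below both DMSO arrays, and the gap between the groups was many times that between replicates. The mean normalised level went from -0.66 ± 0.40 with DMSO to -4.72 ± 0.21 with DAPT (SD, n = 2). LUM fell by 4.06 ± 0.24 (SE), that is 16.7-fold, with a limma adjusted p of 0.00185. Within slide 1 the change was -4.49 and within slide 2 it was -3.63. With normexp the change was -3.01. A more negative change was seen in 77 of the 32294 features.

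Lumican was read by 3 probes. Its second probe fell from signals of 123 and 98.5 under DMSO to 22 and 14.2 under DAPT, a change of -2.54. With normexp that probe was at -1.06. The size of the fall in LUM thus depended on the probe. The dimmest probe was well above background on both DMSO arrays (74.3 and 38.7) and on neither DAPT array (1.82 and 4.10), so it was kept through DMSO alone and is no separate support. For it each DAPT array was represented by its lowest signal well above background over all probes, or by the probe itself if that was brighter. On that stand-in DMSO was 10.3-fold higher, which is no strict lower limit. With normexp the dimmest probe was at -0.79.

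FMOD encodes fibromodulin, a collagen-binding keratan sulfate proteoglycan of tendon, cartilage and sclera. It read 284 and 188 with DMSO against 25.7 and 22.3 with DAPT, again with no overlap. The mean level went from -2.75 ± 0.35 with DMSO to -5.92 ± 0.093 with DAPT (SD, n = 2), and FMOD fell by 3.17 ± 0.20 (limma adjusted p = 0.00211). The change was -3.35 on slide 1 and -2.99 on slide 2, and it was -1.60 with normexp and -2.16 with the mean of its probes. Another FMOD probe read 49.3 and 40.8 under DMSO against 21.3 and 16.7 under DAPT, and its change was -1.15, or -0.34 with normexp. The remaining probe was well above background on 1 array of each group and was not tested. The size of the fall in FMOD therefore depended on the probe, while its direction was shared by both tested probes.

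KERA encodes keratocan, best known from corneal stroma, where it helps to keep collagen fibrils in order. It read 265 and 324 with DMSO against 42.2 and 47.4 with DAPT. KERA moved from -2.40 ± 0.28 in DMSO to -5.02 ± 0.17 in DAPT (SD, n = 2), so it fell by 2.61 ± 0.18 (6.12-fold, limma adjusted p = 0.00264). The slides gave -2.54 and -2.69, and normexp gave -1.77. On the processed signal all 3 probes lay close together, between -2.66 and -2.53, with signals in DMSO from 85.5 to 324. With normexp they were at -1.77, -1.52 and -1.14, nearer 0 for the dimmer probes. KERA was thus the small leucine-rich gene whose tested probes agreed most closely in these arrays.

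DCN encodes decorin, a dermatan or chondroitin sulfate proteoglycan that binds collagen and TGF-β and is abundant in most fibrous tissue. Its brighter probe was close to background in these cultures. The spot read 11.3 in the second DMSO array and 5.46 and 4.46 in the DAPT arrays, of which only the first DAPT array was well above background. The spot on the first DMSO array read unevenly, carried an outlier flag and was left out, so DMSO rested on 1 array and the gene did not enter the test. On slide 2 the difference was -1.25. With normexp, and still without the flagged spot, this probe was at -0.11. With the flagged spot kept, an alternative chosen after seeing the data, DCN was at -1.89 (limma adjusted p = 0.0645). The other DCN probe was not well above background on any array. No call is made for decorin.

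EPYC, for epiphycan of growth cartilage, read between 1.20 and 2.25 on the 4 arrays, never well above background. It has only a bound in both groups, and no fold is given.

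OGN encodes osteoglycin, also called mimecan, a small proteoglycan of bone, cornea and vessel walls. It read 59.7 and 31.2 with DMSO against 51.4 and 31.4 with DAPT. Here the groups overlapped fully, and the arrays of slide 1 were the higher ones in both groups. The change was -0.0072 ± 0.37 (limma adjusted p = 0.991), with a 95% interval from -0.99 to 0.98. Within the slides it was -0.10 and 0.088, and with the slide as a block the interval narrowed to -0.27 to 0.25. A fall as deep as that of LUM, FMOD or KERA on their brightest probes lay outside both intervals. This OGN probe was dim, and the second tested FMOD probe, of like signal in DMSO, changed by only -1.15. With normexp OGN was at 0.037. The second OGN probe was not well above background on any array.

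**Figure D2:**
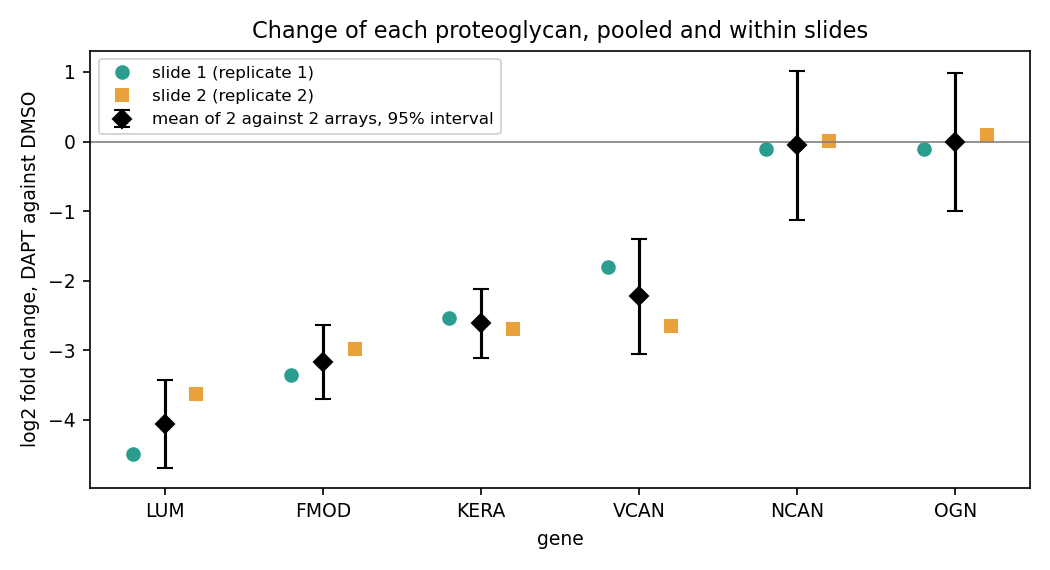
Log2 fold change of DAPT against DMSO for each gene, as the mean of 2 against 2 arrays with its 95% interval from limma (black) and as the difference within slide 1 and within slide 2. LUM, FMOD, KERA and VCAN lie below 0 on both slides, and NCAN and OGN lie between -0.11 and 0.088 within slides.

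Among the large proteoglycans, VCAN encodes versican, the hyaluronan-binding chondroitin sulfate proteoglycan of loose mesenchyme, vessel walls and developing brain. It was bright in DMSO, at 3778 and 6390, and lower in DAPT, at 997 and 966. The DMSO arrays differed from each other by 0.86 on the log2 scale and the DAPT arrays by 0.024, yet the groups did not overlap. VCAN went from 1.67 ± 0.61 in DMSO to -0.56 ± 0.017 in DAPT (SD, n = 2) and fell by 2.23 ± 0.31 (4.68-fold, limma adjusted p = 0.0117). The change was -1.81 on slide 1 and -2.65 on slide 2, since the higher DMSO array lay on slide 2.

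Versican had 4 probes, and the 3 brighter ones were lower in DAPT past the threshold, with changes from -2.26 to -2.23. The dimmest, at 57.4 and 74.0 with DMSO against 14.9 and 6.76 with DAPT, was well above background on 1 DAPT array only, so DMSO alone kept it. It was at -2.60, and at -0.72 with normexp. On each of the 4 probes the second DMSO array was above the first. Leaving out single arrays kept the call of VCAN, with adjusted p from 0.00697 to 0.0461, where the lone array of a group is assumed to vary like the other group.

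NCAN encodes neurocan, a chondroitin sulfate proteoglycan made by neurons and glia that belongs to the same hyaluronan-binding family as versican. Its single probe read 1756 and 893 with DMSO against 1500 and 851 with DAPT. As with OGN, the arrays of slide 1 were higher in both groups, by 0.87 in DMSO and 0.75 in DAPT, and the groups overlapped. NCAN was at -0.31 ± 0.62 with DMSO and -0.36 ± 0.53 with DAPT (SD, n = 2). The change was -0.052 ± 0.40 (limma adjusted p = 0.944), with a 95% interval from -1.12 to 1.02. Within the slides it was -0.11 and 0.010. With the slide as a block the change was -0.052 ± 0.087, and its interval ran from -0.29 to 0.19.

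Set side by side, the change of VCAN minus that of NCAN was -1.69 on slide 1 and -2.66 on slide 2. For LUM minus NCAN the differences were -4.38 and -3.64, and for KERA -2.42 and -2.70. For FMOD the mean difference was -3.12, with the same sign on both slides. Both slides gave each of these pairs the same sign. These differences between genes are given without a test. Among the genes that fell, LUM minus FMOD was -1.14 and -0.64, and KERA minus VCAN was -0.73 and -0.047. The order of sizes was not stable under another background correction. With normexp VCAN, at -2.18, lay below KERA and FMOD, and the 4 calls stayed.

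**Figure D3:**
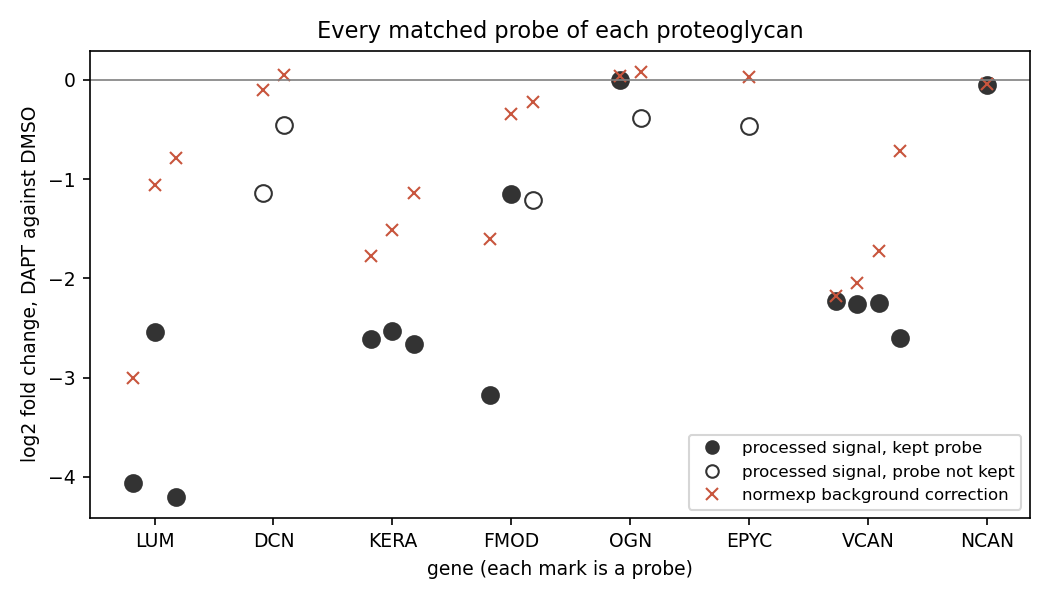
Log2 fold change of DAPT against DMSO (vertical axis) for all 19 probes of the 8 matched genes, with kept probes filled and the same probe after normexp background correction as a cross. Of 14 kept probes, 12 were lower past the threshold (13.3% of all probes were). These 12 are repeated readings of 4 genes, LUM, KERA, FMOD and VCAN, and do not count as separate genes. Of them 2, in LUM and VCAN, passed the filter through DMSO alone. The crosses lie nearer 0 for the dimmer probes of LUM, KERA, FMOD and VCAN. The first DCN probe lacks its flagged DMSO array.

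EPYC, KERA, LUM and DCN follow one another on chromosome 1 in the gene order of GRCg7b, which is used here for order only. Of the 8 coding genes on each side of this cluster of 4 genes, 7 were tested, with changes from -0.57 to 0.30. Of these neighbours 2 were lower past the threshold, where 13.1% of all features were. They were ATP2B1, a plasma membrane calcium pump on the EPYC side, at -0.57 ± 0.10, and BTG1, an antiproliferative gene next to DCN, at -0.44 ± 0.10 (limma adjusted p = 0.0237 and 0.0437), both named after their values were seen. Without any single array neither call held (adjusted p from 0.0537 to 0.188 for ATP2B1 and 0.103 to 0.310 for BTG1), while the changes stayed between -0.61 and -0.52 and between -0.48 and -0.40. BTG1 also missed the threshold with normexp (adjusted p = 0.0859). KERA and LUM, at -2.61 and -4.06, were the deepest changes measured in this stretch.

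Genes that build, bind or cut proteoglycans were followed in 9 lists. Over these lists 48 distinct genes were tested, of which 29 fell and 2 rose, with a median of -1.05 beside 0.061 over all features. Over all features 13.1% fell and 12.4% rose, and counts such as 1 of 4 or 1 of 5 below are near those shares. The lists share no test as sets, and no list is called particular from its count.

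The tested partners of versican and neurocan in the hyaluronan matrix fell, as VCAN did and NCAN did not. In the list of other hyalectans, link proteins and their partners 5 of 5 tested genes fell, with a median of -3.44. No further hyalectan was among these 5. HAS2, an enzyme that makes hyaluronan, was at -3.71 ± 0.14 and HAPLN1, the link protein that locks large proteoglycans to it, at -3.64 ± 0.17. The other listed hyaluronan synthases, HAS1 and HAS3, were not tested. With normexp HAS2 was at -2.58. TNC, tenascin-C, which binds their C-terminal domain, was at -3.44 ± 0.16. TNR, the tenascin of perineuronal nets, was at -1.61 ± 0.13, but with normexp it was at -0.34 and missed the threshold (adjusted p = 0.0563). CD44, the cell-surface receptor of hyaluronan, was at -1.21 ± 0.11. In limma the adjusted p was 0.00110 for HAS2 and at most 0.00412 for the others.

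Only 1 further small leucine-rich gene was tested. OPTC, which encodes opticin of the vitreous body, was at -0.66 ± 0.17 and missed the threshold (limma adjusted p = 0.0579), but passed with the slide as a block (adjusted p = 0.0335). Of the collagens and other fibril partners, on which the small leucine-rich proteins sit, 12 of 15 tested genes fell and 1 rose, with a median of -3.49. MATN1, at -1.18 ± 0.26, was among those that fell, but it entered the test through DMSO alone. COL6A3 and COL6A2, chains of the beaded filaments of collagen VI, were at -4.29 ± 0.17 and -4.11 ± 0.17, the latter at -3.47 with normexp. COL3A1, a fibrillar collagen of soft stroma, was at -4.17 ± 0.10, and COL9A1, a collagen of cartilage and vitreous, at -3.99 ± 0.14. The 1 that rose was COL14A1, a fibril-associated collagen, at 1.79 ± 0.20 (limma adjusted p = 0.00736), on slide 1 by 1.70 and on slide 2 by 1.88.

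In basement membrane and pericellular proteoglycans 4 of 5 tested genes fell. IMPG1 and IMPG2, proteoglycans of the matrix around photoreceptors, were at -1.59 ± 0.19 and -1.10 ± 0.16. COL18A1, a heparan sulfate proteoglycan collagen, was at -1.18 ± 0.17, and AGRN, agrin, at -0.56 ± 0.098. AGRN lost its call without any single array (adjusted p from 0.0627 to 0.179, with changes from -0.57 to -0.56) and with the mean of its probes or every probe tested (adjusted p = 0.0825 and 0.0562). IMPG2 lost it without DAPT replicate 1 or 2 (adjusted p = 0.0704 and 0.0521), and COL18A1 without DAPT replicate 2 (adjusted p = 0.0778).

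Membrane proteoglycans went both ways, with 1 of 5 tested genes lower, 1 higher and a median of 0.22. SDC3, a syndecan of neurons and cartilage, was at -1.92 ± 0.12 (limma adjusted p = 0.00222). GPC5, a glypican, was not well above background on either DMSO array. With the stand-in used for LUM it was 2.50-fold higher in DAPT, no strict lower limit (limma adjusted p = 0.00110 for the values as read). It entered the test through DAPT alone, and normexp brought it to 0.37, and normexp with quantile normalization to 0.32 (adjusted p = 0.0505). PTPRZ1, the receptor phosphatase whose secreted form is the brain proteoglycan phosphacan, was at -0.64 ± 0.21 and did not pass (limma adjusted p = 0.100), but did with the slide as a block (adjusted p = 0.0460).

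The tested enzymes that make the sugar chains had medians nearer 0, but they were few. Tested were 4 of 22 listed genes for chondroitin and dermatan, 4 of 10 for keratan and 4 of 19 for heparan sulfate. In chondroitin and dermatan sulfate synthesis 1 of 4 tested genes fell, CHST3, a chondroitin 6-sulfotransferase, at -0.84 ± 0.16. In keratan sulfate synthesis, the chain of lumican and keratocan, 2 of 4 fell, the galactosyltransferase B4GALT1 at -0.57 ± 0.10 and the fucosyltransferase FUT8 at -0.51 ± 0.11. In heparan sulfate synthesis 0 of 4 passed in limma (1 at an unadjusted p under 0.05), and the changes had a median of 0.033. With the slide as a block, 2 of 4 genes fell in the chondroitin list, 4 of 4 in the keratan list, and 1 of 4 rose in the heparan list. Over all 32294 features the blocked fit called more, 6005 lower and 6859 higher, so 1 of 4 rising is near its share. B4GALT1 and FUT8 lost their calls without any single array, and CHST3 without any but DMSO replicate 1. The adjusted p then reached 0.180, 0.266 and 0.128, with changes from -0.62 to -0.52, from -0.58 to -0.43 and from -0.87 to -0.65, and FUT8 also missed the threshold with median scaling and with no filter, CHST3 with every probe tested.

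Of 16 listed enzymes that cut proteoglycans and their inhibitors only 5 were tested, and 4 of these 5 fell. None of the listed ADAMTS proteases had a matched probe, so they were not measured here. MMP13 and MMP9, a collagenase and a gelatinase, were at -5.94 ± 0.69 and -3.01 ± 0.21. TIMP3, which inhibits the aggrecan-cutting ADAMTS proteases, was at -2.93 ± 0.11, and MMP2, another gelatinase, at -0.90 on slide 1 and -1.11 on slide 2. MMP13 was well above background on 1 of 2 DAPT arrays, so it entered the test through DMSO alone. It was at -5.02 on slide 1 and -6.86 on slide 2, at -6.95 without DAPT replicate 1 and -4.93 without DAPT replicate 2, and at -3.25 with normexp. MMP2 lost its call without DAPT replicate 1 or 2 (adjusted p = 0.0972 and 0.0780).

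**Figure D4:**
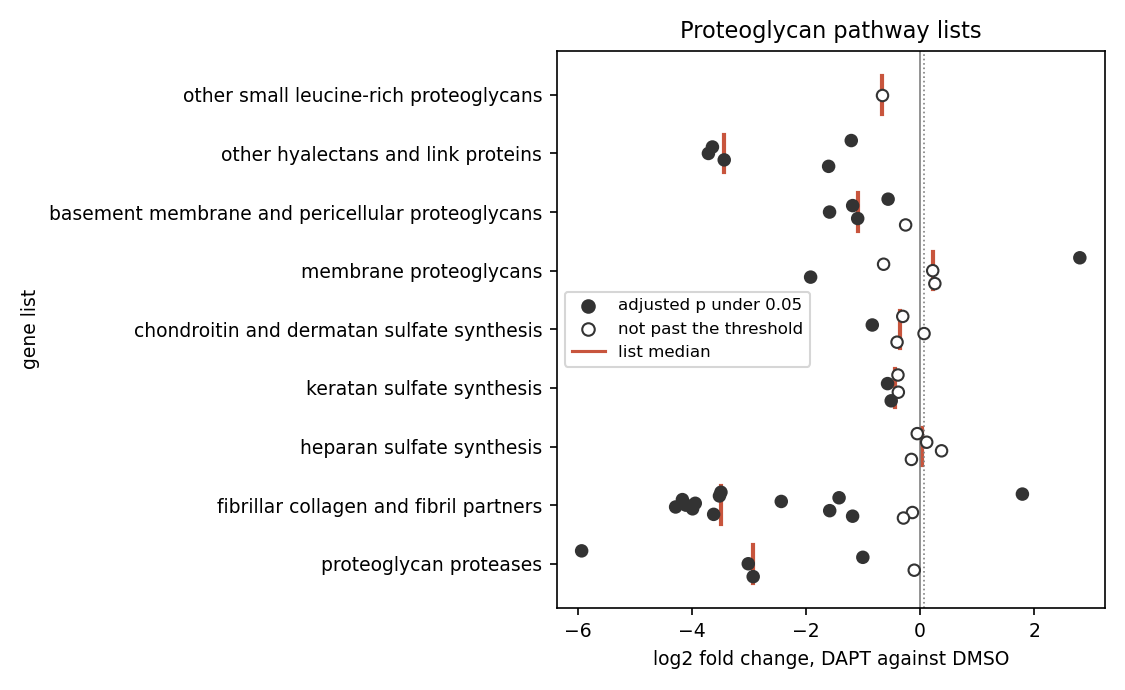
Log2 fold change of DAPT against DMSO (horizontal axis) for each tested gene of the 9 lists, a point per gene, filled where the adjusted p was under 0.05, with the list median in red and the median of all features dotted. Hyaluronan partners, fibril collagens, and proteases with their inhibitors have medians between -3.49 and -2.93. The median of -2.93 is the value of the inhibitor TIMP3. Medians of the sugar chain lists lie between -0.45 and 0.033.

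Markers of stromal mesenchyme mostly fell, as did LUM, FMOD and KERA but not OGN. Of 10 tested markers 8 fell and 1 rose, with a median of -2.66. POSTN, periostin of fibroblasts, was at -4.14 ± 0.13, and the mesenchymal transcription factors PRRX1 and TWIST1 were at -3.64 ± 0.25 and -3.20 ± 0.17. With normexp POSTN was at -3.52 and TWIST1 at -2.31. The 1 that rose was TCF21, a mesenchymal transcription factor, at 4.57 ± 0.098, or 2.32 with normexp and 3.38 with the mean of its probes. TWIST2 had a matched probe but none passed the filter, so it was not tested. The summed signal of the list ran from 316 to 344 times the array's 75th percentile in DMSO and from 238 to 245 in DAPT, a sum that holds VIM, vimentin, at 0.37 ± 0.10 (limma adjusted p = 0.0616, or 0.0335 with the slide as a block) and shared with glia. Without VIM the sum was 147 and 176 with DMSO against 24.1 and 23.5 with DAPT. COL1A2 made up most of it in DMSO, and COL1A2 and COL3A1 were also in the fibril collagen list. Of 7 tested chondrocyte markers 4 fell and 1 rose, among them SOX9, the cartilage and glial transcription factor, at -1.60 ± 0.12. Their sum was 71.5 to 75.7 in DMSO and 19.7 to 22.3 in DAPT, most of it from COL2A1. COL2A1, COL9A1 and MATN1 were in the fibril collagen list too, and MATN1, which fell, entered the test through DMSO alone. The 1 chondrocyte marker that rose was RUNX2, at 0.49 ± 0.12, a call lost under 8 alternatives. Their part in the fall of LUM, FMOD, KERA and VCAN was not tested. Fewer cells of a type and less RNA per cell cannot be told apart in these bulk samples.

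Neuronal markers did not stay level beside NCAN. Of 6 tested 3 fell and 2 rose. The secretory granule gene SCG3 was at -2.20 ± 0.14, while STMN2, which regulates microtubules in neurons, was at -2.07 ± 0.16. ELAVL4, a neuronal RNA-binding protein, was at -1.59 ± 0.23, a call lost without DAPT replicate 1 or 2 (adjusted p = 0.0506 and 0.0594). The neurofilament gene NEFM and doublecortin, DCX, rose by 2.12 ± 0.18 and 1.85 ± 0.19. The summed signal of the list was 67.2 and 54.4 with DMSO against 19.6 and 18.8 with DAPT. SCG3 made up most of that sum in both groups, so the sum mainly follows that gene. In the list of Müller glia, the main glia of the retina, 2 of 8 markers rose and 3 fell, with sums of 222 and 204 with DMSO against 303 and 320 with DAPT. VIM made up most of that sum, and without it the sums were 51.9 and 37.1 against 88.8 and 97.5. CA2 made up most of what remained in both groups, so the sums without VIM mainly follow CA2. The median change of the list was -0.12. RLBP1 rose by 1.91 ± 0.33 and CA2, a carbonic anhydrase, by 1.20 ± 0.20. AQP4, a water channel, was at -4.48 ± 0.52, and at -1.58 with normexp. It was well above background on 1 DAPT array only and entered the test through DMSO alone. The other fallers were GPR37, at -1.44 ± 0.26, and SOX8, at -1.14 ± 0.14. The calls of RLBP1 and GPR37 were each lost under 2 alternatives.

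With the slide as a block, 4 neuronal markers were lower and 2 higher, 4 Müller glial markers lower and 3 higher, and 5 chondrocyte markers lower and 1 higher. The blocked fit also called more of all 32294 features, 6005 lower and 6859 higher. The remaining lists stand here as counts. Of smooth muscle and pericyte markers 2 of 4 fell, and with the block 1 also rose (TAGLN, limma adjusted p = 0.0172). Of endothelial markers 2 of 3 fell, and no CDH5 probe passed the filter. Lens markers rose in 8 of 10 (9 with the block) and pigment epithelium markers in 5 of 6. TYR, among these 5, entered the test through DAPT alone, and no RPE65 probe passed the filter. Of 2 tested macrophage markers 1 rose, CD74, at 1.19 ± 0.11, and no SPI1 probe passed the filter. Their part in the proteoglycan changes was not tested.

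**Figure D5:**
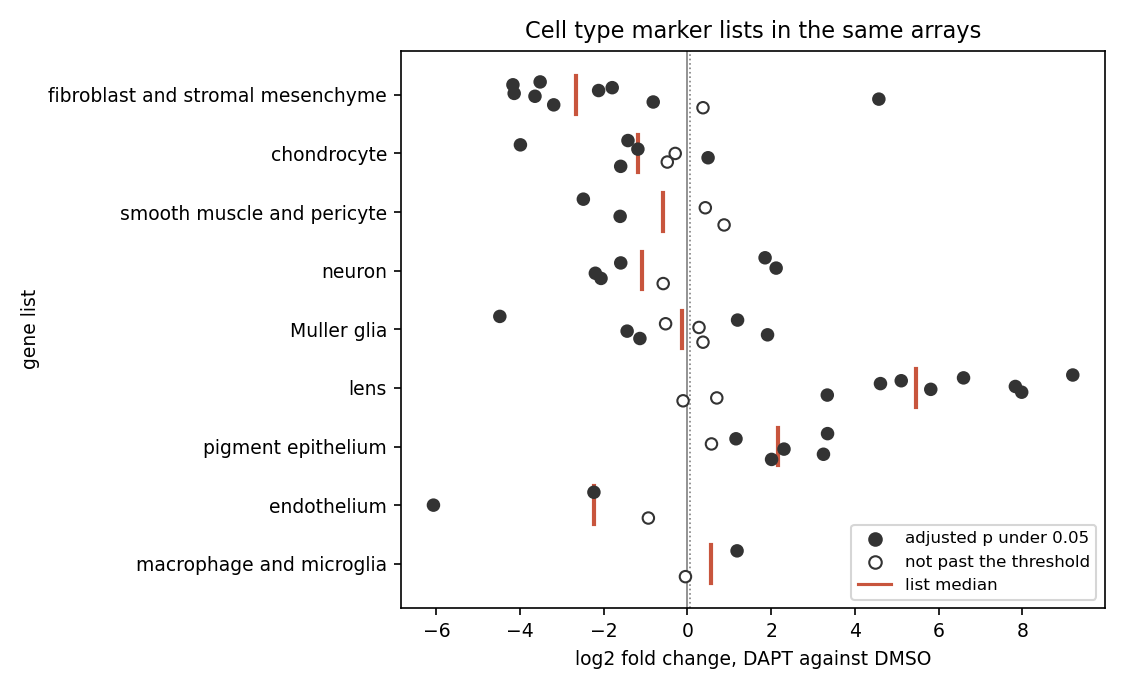
Log2 fold change of DAPT against DMSO (horizontal axis) for each tested gene of the 9 marker lists, a point per gene, filled where the adjusted p was under 0.05, with the list median in red and the median of all features dotted. The stromal mesenchyme list has a median of -2.66 with TCF21 alone above 4, and the lens list lies mostly to the right.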

How the data were processed

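The submitters' processing notes and the file headers name Agilent Feature Extraction (11.5.1.1). Per the file headers, the values used are its processed signal, a linear 1-colour intensity after background subtraction. The authors' deposited value table holds that intensity times 1 factor per array (1.41 to 1.51) and medians of 380 and 359 (DMSO columns) and 350 and 336 (DAPT columns). It is neither logged nor centred per gene, what set the factors is unknown, and it served as an alternative.

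Controls and spots with an outlier flag (4 to 8 per array) were left out. Each array was divided by its 75th percentile of processed signal before log2, spots of a probe were averaged, and a feature stayed if 1 group or more had it well above background on its 2 arrays. A named gene took its kept probe with the highest mean, and unnamed probes stayed as they were. Of 43603 probes 11935 matched 5382 genes. The test was limma (3.58.1, under R 4.3.3), adjusted by Benjamini-Hochberg across all 32294 features with a threshold of 0.05, without a block, and was checked on simulated data.

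Of 223 list entries 215 matched the RefSeq gene table by current or older symbol, and 97 distinct list genes were tested. Up to 4 genes per pathway list and 3 per marker list were named, by size of change among those past the threshold with groups that did not overlap, and some marker genes are given as counts only. CD44, COL14A1, COL1A2, CA2, SOX8, TAGLN, PRRX1, TWIST1, RUNX2, ELAVL4, DCX, MATN1, ATP2B1 and BTG1 were named after their values were seen. So were genes that missed the threshold. The members and lists were chosen with earlier results of these data known. Replicate 1 shared 1 slide in both groups and replicate 2 the other, per the file headers, and the gap between replicates correlated at 0.58 between the groups over features.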

Additional observations from a re-analysis of the deposited data

How the results depend on the processing

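Across 16 alternatives (normexp with offset 50 on the median signal, quantile and median scaling, the authors' values, other filters, other probe rules, another prior, the block, each array left out, flagged spots kept) 4 or 5 proteoglycans were lower and 0 higher, and LUM, FMOD, KERA and VCAN kept direction and call. NCAN and OGN never passed. With single arrays left out, LUM ran from -4.34 to -3.78, FMOD from -3.42 to -2.92, KERA from -2.81 to -2.42, VCAN from -2.66 to -1.80, NCAN from -0.49 to 0.38 and OGN from -0.42 to 0.41. The fifth was DCN, near background and with 1 DMSO array in the fit, at -1.14 with no filter and without DMSO replicate 1. It was not called without DAPT replicate 2, at -1.04. Nor was it called with the flagged spot kept, at -1.89 with both DMSO arrays in the fit. DCN is thus no firm call. Each fit without an array leaves 1 array in a group, assumed to vary like the other group. With the slide and replicate block, 6859 features were higher (3992 without it) and 6005 lower (4233), and the blocked change of VCAN was -2.23 (adjusted p = 0.00500). With an array left out, 1230 to 2928 features were higher and 1840 to 3327 lower. Pathway genes higher were 1 under normexp with quantile normalization and 1 where all arrays had to be well above background, against 2, and 3 at most, with the block or a trended robust prior. Pathway genes lower were 21 to 34 over all settings, against 29, and 21 to 27 without an array. The cause of these shifts was not tested. Dim probes limit DCN, EPYC, OGN and the dimmer probes of LUM, FMOD, KERA and VCAN. With normexp the brightest probes of LUM, FMOD and KERA fell by less too, at -3.01, -1.60 and -1.77.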
